A study of Mus musculus with 12 samples.

Results

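The genes described here encode the Toll-like receptors Tlr1, Tlr2, Tlr4, Tlr6, Tlr7, Tlr9 and Tlr13, the endotoxin co-receptors Cd14 and Ly96, and the adaptor Myd88. They were chosen by name: a probe set belonged to the group when its single gene symbol in the platform annotation was one of these 10. Of the 10 genes, 9 had a probe set and all 9 were tested, among 12560 genes tested in all. No probe set carried the symbol Tlr13 alone, and that gene was not analysed here. The 9 genes had 12 probe sets, of which 10 passed the filter on low values.

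Toll-like receptors are membrane proteins by which myeloid cells sense microbial products. Tlr1, Tlr2, Tlr4 and Tlr6 act mainly at the cell surface, whereas Tlr7, Tlr9 and Tlr13 sit in endosomes and bind nucleic acids. Ligand binding pairs the receptors and recruits Myd88, and kinases and ubiquitin ligases downstream activate NF-kB and interferon regulatory factors, which switch on cytokine and chemokine genes. Monocytes, macrophages and neutrophils carry most of these receptors, and Cd14 is widely used as a marker of monocytes and macrophages.

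Expression was measured on 12 Affymetrix arrays, with 3 arrays in each of 4 groups. The groups were Trib1-expressing acute myeloid leukaemia (AML) cell lines labelled Ts1Cje + Trib1, Trib1-expressing AML lines labelled B6 + Trib1, hematopoietic cells of Ts1Cje mice, and hematopoietic cells of wild-type mice labelled B6. Ts1Cje mice are a Down syndrome model with part of chromosome 16 present in an additional copy, and Trib1 is a pseudokinase that promotes loss of the transcription factor C/EBP alpha. All 4 groups received no treatment and were cultured alike, in IMDM with IL-3 at 5 ng/ml and 10% fetal bovine serum, and 100 ng of total RNA was labelled. The titles of both Trib1 groups add WT after Trib1, and the mouse's age, the promoter driving Trib1 and the type of hematopoietic cell are not given in the sources used here. Nothing says whether the 3 arrays of a group came from separate mice, lines or cultures, so the p-values reflect only how far these arrays spread, and that spread may be technical. Trib1 expression and leukaemic state went together in each comparison of lines with cells and cannot be told apart. If the arrays of a group came from a single line or mouse, genotype cannot be told apart from that line or mouse either.

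Values were intensities on a linear scale. Array medians lay between 30.5 and 32.0, the 40th percentile of an array lay between 22.0 and 23.5, and values near or under that percentile are called dim below. Correlations over genes lay between 0.997 and 0.999 for the 12 pairs of arrays of the same group and between 0.915 and 0.993 for the 54 pairs from different groups. The pan-leukocyte gene Ptprc averaged 2062 ± 39.1 in Ts1Cje + Trib1 lines, 2417 ± 48.6 in B6 + Trib1 lines, 2918.5 ± 41.8 in Ts1Cje cells and 3037 ± 112 in B6 cells (SD, n = 3 each). The Trib1 probe set averaged 45.9 ± 3.57, 46.2 ± 2.88, 72.0 ± 3.50 and 76.2 ± 7.23 in the groups in that order, lower in the lines than in the cells. The part of the transcript that it reads is not given in the sources used here, so it does not check the labels. In each comparison the log2 difference of (intensity + 15) was tested with limma, the Benjamini-Hochberg method adjusted p over all 12560 genes, and passing meant an adjusted p below 0.05.

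RefSeq promoter windows were at hand for 6 of the 10 genes, in 8 windows. The 250 bases before an annotated start are printed for the lipopeptide receptors Tlr2, Tlr1 and Tlr6, because their products form heterodimers (Tlr2 with Tlr1 or Tlr6) while their transcripts followed different patterns over the groups. Each sequence runs 5′ to 3′ on the gene's strand, which is the minus strand of GRCm38.p6 for all 3, the starts are those of the RefSeq promoter table and lie inside the gene spans given below, and capitals mark matches to the NF-kB motif in Tlr2, the PU.1 motif in Tlr1 and the interferon response element (ISRE) in Tlr6.
Tlr2, chr3:83841609-83841858: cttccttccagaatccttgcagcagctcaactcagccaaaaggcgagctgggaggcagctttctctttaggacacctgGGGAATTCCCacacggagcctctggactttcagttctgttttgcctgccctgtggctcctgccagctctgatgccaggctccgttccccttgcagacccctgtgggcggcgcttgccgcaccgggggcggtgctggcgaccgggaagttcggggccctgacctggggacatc
Tlr1, chr5:64933559-64933808: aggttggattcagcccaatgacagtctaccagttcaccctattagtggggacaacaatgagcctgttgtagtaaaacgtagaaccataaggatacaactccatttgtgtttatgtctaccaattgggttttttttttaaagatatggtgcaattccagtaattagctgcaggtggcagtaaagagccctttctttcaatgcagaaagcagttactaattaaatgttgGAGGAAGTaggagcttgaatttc
Tlr6, chr5:64959167-64959416: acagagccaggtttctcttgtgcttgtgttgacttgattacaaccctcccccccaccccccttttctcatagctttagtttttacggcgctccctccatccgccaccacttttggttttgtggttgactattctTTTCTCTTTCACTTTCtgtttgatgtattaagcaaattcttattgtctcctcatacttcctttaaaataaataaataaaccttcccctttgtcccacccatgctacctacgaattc
Motifs were searched on both strands as GGGNNTTCC for NF-kB, GAGGAAGT for PU.1, TTNNGNAA for C/EBP and, for the ISRE, GAAA repeated after a gap of 2 bases of any kind. The Tlr2 window held 2 overlapping NF-kB matches on opposite strands, starting 172 and 171 bases before the start, and 4.98% of the 32851 windows of the same length held that motif. In the Tlr1 window a PU.1 match lay 23 bases before the start, and 2.44% of windows held that motif. The Tlr6 window held 2 overlapping ISRE matches on the opposite strand, 116 and 110 bases before the start, and 2.98% of windows held that motif. C/EBP matches, held by 36.8% of windows and left in lower case, numbered 1 in the Tlr2 window and 1 in this Tlr6 window. A further window of Tlr1 and one of Tlr6, not printed, held none of the 4 motifs. The window printed for each was thus the one with matches. Those of Tlr9 and Tlr13 held none of the motifs either, and the Myd88 window held 1 ISRE match 40 bases before the start. A match is a description of letters and says nothing about binding.

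None of the 10 genes lies on chromosome 16. In the mouse assembly GRCm38.p6, Tlr1 (chr5:64924680-64933600) and Tlr6 (chr5:64953092-64970942) are neighbours on chromosome 5, Tlr2 lies at chr3:83836272-83841824, Tlr4 at chr4:66827551-66846581 and Ly96 at chr1:16688456-16709605. Cd14 is at chr18:36725064-36726815, Tlr9 (chr9:106222598-106226876) and Myd88 (chr9:119335934-119340018) share chromosome 9, and Tlr7 (chrX:167303380-167330574) and Tlr13 (chrX:106143275-106160493) share the X chromosome.

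Of the 9 measured genes, Tlr1, Tlr2, Cd14, Tlr7 and Myd88 had their lowest mean in Ts1Cje + Trib1 lines and their highest in Ts1Cje cells. In cells without Trib1, 8 of the 9 genes were higher on the Ts1Cje background and none was lower (of all genes tested, 23.3% were higher and 29.3% lower). In the Trib1 lines, 5 of the 9 were lower on the Ts1Cje background, led by Cd14 and Tlr2, and 2 were higher (of all genes, 9.63% were lower and 11.9% higher). The lines of the Ts1Cje background had lower levels than Ts1Cje cells for 8 of the 9 genes (26.8% of all genes were lower). B6 + Trib1 lines had higher Cd14, Tlr2 and Tlr9 than B6 cells and lower levels of the other 6 (of all genes, 34.1% were higher and 31.1% lower).

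**Figure D1:**
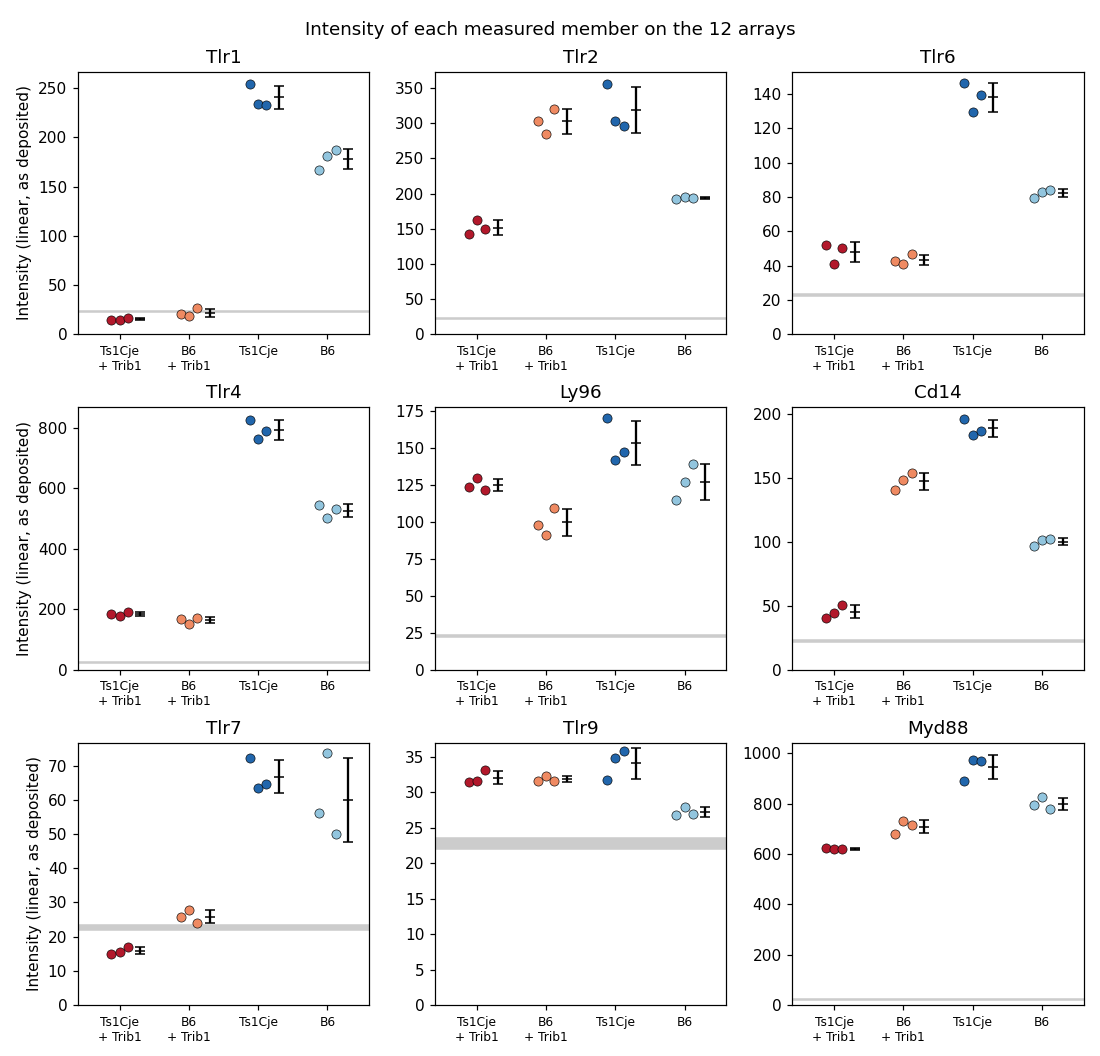
Intensity of each measured gene on every array (points) with the group mean and SD (black bars), each panel on its own linear scale, for Ts1Cje + Trib1 lines, B6 + Trib1 lines, Ts1Cje cells and B6 cells, 3 arrays each. The grey band spans the arrays' 40th percentiles, 22.0 to 23.5. Cd14 and Tlr2 are low in Ts1Cje + Trib1 lines and not in B6 + Trib1 lines, whereas Tlr1, Tlr4 and Tlr7 are low in both kinds of line.

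Cd14, the co-receptor that hands lipopolysaccharide (endotoxin) to Tlr4 and Ly96, had intensities of 40.8, 44.0 and 51.0 in Ts1Cje + Trib1 lines and 140.4, 148 and 154 in B6 + Trib1 lines. In cells without Trib1 it had 197, 184 and 187 on the Ts1Cje arrays and 97.1, 101 and 102 on the B6 arrays. No group overlapped another. The order of the groups was Ts1Cje cells, B6 + Trib1 lines, B6 cells and Ts1Cje + Trib1 lines. Cd14 was higher in Ts1Cje than in B6 cells by 0.82 ± 0.06 on the log2 scale (SE, limma, adjusted p = 1.10e-07). It was lower in Ts1Cje + Trib1 than in B6 + Trib1 lines, with a log2 difference of -1.43 ± 0.06 (limma, adjusted p = 1.00e-09). The genotype difference in the lines minus that in the cells was -2.26 ± 0.08 (adjusted p = 2.00e-10), the largest in size among the 9 genes.

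Tlr2, the receptor for bacterial lipopeptides that pairs with Tlr1 or Tlr6, had 142, 163 and 149 in Ts1Cje + Trib1 lines and 303, 284 and 321 in B6 + Trib1 lines. Ts1Cje cells had 357, 303 and 296, and B6 cells had 193, 195 and 193. Intensities of B6 + Trib1 lines and Ts1Cje cells overlapped, and those of Ts1Cje + Trib1 lines lay under every other array. The log2 difference between genotypes was -0.94 ± 0.07 in lines (adjusted p = 3.23e-07) and 0.67 ± 0.07 in cells (adjusted p = 3.17e-06). The difference of these differences was -1.61 ± 0.09 (adjusted p = 2.53e-08).

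Its partner Tlr1 had 14.6, 14.6 and 16.8 in Ts1Cje + Trib1 lines and 20.2, 18.7 and 26.3 in B6 + Trib1 lines, against 255, 234 and 233 in Ts1Cje cells and 167, 181 and 187 in B6 cells. It was above its array's 40th percentile on 7 arrays, which were the 6 cell arrays and 1 of the 6 line arrays, so its levels in the lines were dim. Tlr1 was higher in Ts1Cje than in B6 cells by 0.40 ± 0.07 (adjusted p = 0.000354). In the lines the difference was -0.27 ± 0.07 (adjusted p = 0.0135), between dim values, and it no longer passed without Ts1Cje + Trib1 array 1 or 2 (adjusted p = 0.0511 and 0.0506). With an offset of 1 it was -0.47 (adjusted p = 0.00704).

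The other partner, Tlr6, had 52.1, 40.9 and 50.3 in Ts1Cje + Trib1 lines and 42.5, 41.2 and 46.8 in B6 + Trib1 lines, with overlapping arrays. Levels were 146, 129 and 139 in Ts1Cje cells and 79.7, 82.7 and 84.3 in B6 cells, with no overlap. The genotype difference was 0.66 ± 0.07 in cells (adjusted p = 3.32e-06). In lines it was 0.10 and did not pass (95% interval -0.04 to 0.24, adjusted p = 0.338). Without Ts1Cje + Trib1 array 2, whose removal also ended the Tlr1 call, it was 0.18 and passed (adjusted p = 0.0458).

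Tlr4, the endotoxin receptor itself, was read by 2 kept probe sets that gave the same order of the groups. The brighter, which represents the gene, had 185, 176 and 190.0 in Ts1Cje + Trib1 lines and 167, 151 and 172 in B6 + Trib1 lines. In cells it had 828, 763 and 790.4 on the Ts1Cje arrays and 544, 501 and 531 on the B6 arrays. All line arrays lay below all cell arrays. The genotype difference was 0.16 ± 0.05 in lines (adjusted p = 0.0481) and 0.58 ± 0.05 in cells (adjusted p = 1.17e-06). The call in the lines ended under 13 of 24 alternative settings (adjusted p up to 0.202). The dimmer probe set gave 0.24 in lines, which did not pass (adjusted p = 0.0505 over all kept probe sets), and 0.57 in cells.

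Ly96, also called MD-2, binds the lipid part of endotoxin and forms the complex with Tlr4. It had 123, 129 and 121 in Ts1Cje + Trib1 lines and 97.9, 91.0 and 109 in B6 + Trib1 lines, and 169.8, 141 and 147 in Ts1Cje cells against 115, 127 and 139 in B6 cells. Arrays of the 2 genotypes did not overlap in cells or in lines. Ly96 was higher on the Ts1Cje background in both, by 0.29 ± 0.08 in lines (adjusted p = 0.0141) and 0.24 ± 0.08 in cells (adjusted p = 0.0166). The difference of the differences was 0.05 (95% interval -0.18 to 0.28, adjusted p = 0.726). The call in cells was lost without B6 array 1 (adjusted p = 0.0793) or Ts1Cje array 1 (0.0613), and the call in lines without array 2 of B6 + Trib1 (0.0674) or of Ts1Cje + Trib1 (0.0560).

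Tlr7, which senses single-stranded RNA, had 14.98, 15.6 and 17.0 in Ts1Cje + Trib1 lines and 25.8, 27.8 and 23.9 in B6 + Trib1 lines. In cells it had 72.2, 63.5 and 64.5 on the Ts1Cje arrays and 56.0, 73.7 and 49.9 on the B6 arrays. It was under the 40th percentile on the 3 Ts1Cje + Trib1 arrays and above it on the other 9. The genotypes overlapped in cells, where the difference of 0.14 did not pass (95% interval -0.06 to 0.33, adjusted p = 0.205), and did not overlap in lines, where it was -0.40 ± 0.09 (adjusted p = 0.00543). The value in cells rested on single B6 arrays: without array 2 the difference was 0.27 (adjusted p = 0.00441), and without array 3 it was 0.04 (adjusted p = 0.700). It passed with median centring of the arrays (0.24, adjusted p = 0.0301). In the lines it was -0.67 with an offset of 1 and -0.70 with a floor at 15. The 2 further Tlr7 probe sets were dim on every array and were not tested.

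Tlr9, the receptor for unmethylated CpG DNA, was near the array median in every group, with 31.4, 31.6 and 33.1 in Ts1Cje + Trib1 lines and 31.6, 32.4 and 31.6 in B6 + Trib1 lines. Ts1Cje cells had 31.7, 34.8 and 35.8 and B6 cells 26.7, 28.0 and 27.0. The lines overlapped and the cells did not. Tlr9 differed by 0.22 ± 0.04 between Ts1Cje and B6 cells (adjusted p = 0.000426) and by 0.01 between the lines (95% interval -0.08 to 0.09, adjusted p = 0.939). It was above the 40th percentile on all 12 arrays, but a filter at the 60th percentile dropped it, so its differences are between low values.

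Myd88, the adaptor that couples these receptors to the IRAK kinases, kept a narrower range than most of the receptors. It had 626, 619.7 and 619 in Ts1Cje + Trib1 lines and 679.9, 731 and 717 in B6 + Trib1 lines, and 891, 975 and 972 in Ts1Cje cells against 795, 827 and 779 in B6 cells. No group overlapped another. It was higher in Ts1Cje than in B6 cells by 0.24 ± 0.04 (adjusted p = 0.000613) and lower in Ts1Cje + Trib1 than in B6 + Trib1 lines by a log2 difference of -0.19 ± 0.04 (adjusted p = 0.00830).

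Between Ts1Cje and B6 cells, 8 of the 9 genes thus passed, all higher, while 52.6% of the 12560 genes passed either way, 23.3% as higher and 29.3% as lower. Their median log2 difference was 0.40, against 0.01 over all genes. Between Ts1Cje + Trib1 and B6 + Trib1 lines, 7 of the 9 passed, with 2 higher (Tlr4 and Ly96) and 5 lower (Tlr1, Tlr2, Cd14, Tlr7 and Myd88), while 21.5% of all genes passed, 11.9% as higher and 9.63% as lower. The median of the 9 was -0.19, against 0.00 over all genes. The test of the difference between both genotype contrasts passed for 8 of the 9, all negative, while 48.6% of all genes passed, 28.4% as positive and 20.2% as negative. Among all genes that passed between Ts1Cje and B6 cells, 44.3% were higher, and with median centring 70.1% were. For the difference of differences the positive share of calls was 58.4%, and with median centring 35.4%.

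**Figure D2:**
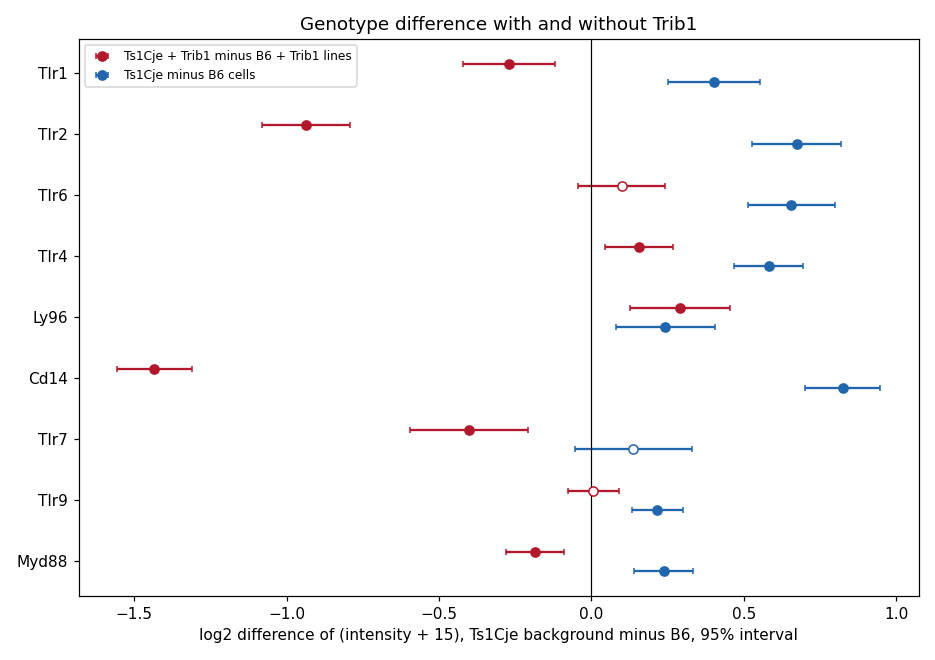
Log2 difference of (intensity + 15), Ts1Cje background minus B6, for each gene in Trib1 lines and in cells without Trib1, with 95% intervals from limma (3 arrays a group). Open circles did not pass. In lines Cd14 (-1.43) and Tlr2 (-0.94) lie farthest below 0, and in cells 8 of 9 genes lie above 0 with adjusted p under 0.05.

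The lines were next set against cells of their own background. On the Ts1Cje background 8 of the 9 genes were lower in the lines and none was higher, while 60.8% of all genes passed, 34.1% as higher and 26.8% as lower. Tlr1 differed by -3.08 ± 0.07 (adjusted p = 1.52e-13), Tlr4 by -2.03 ± 0.05 (adjusted p = 4.92e-13) and Cd14 by -1.76 ± 0.06 (adjusted p = 5.44e-12). The remaining falls were -1.41 for Tlr7, -1.29 for Tlr6, -1.004 for Tlr2, -0.59 for Myd88 and -0.26 for Ly96. Tlr9 differed by -0.06 and did not pass (95% interval -0.14 to 0.02, adjusted p = 0.199); it passed without Ts1Cje array 1 (adjusted p = 0.0393). Since Tlr1 and Tlr7 were dim in these lines, their log2 differences are drawn toward 0 by the added 15.

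On the B6 background all 9 measured genes passed, 3 higher and 6 lower, while 65.2% of all genes passed, 34.1% as higher and 31.1% as lower. Cd14 was higher in B6 + Trib1 lines than in B6 cells by 0.49 ± 0.06 (adjusted p = 5.52e-06), Tlr2 by 0.61 ± 0.07 (adjusted p = 3.79e-06) and Tlr9 by 0.15 ± 0.04 (adjusted p = 0.00424). Tlr1 differed by -2.40 ± 0.07 (adjusted p = 3.73e-12) and Tlr4 by -1.60 ± 0.05 (adjusted p = 1.10e-11). With median centring Tlr9 had 0.27. Smaller falls were seen for Tlr7 (-0.86), Tlr6 (-0.73), Ly96 (-0.31) and Myd88 (-0.17), and that of Myd88 was -0.06 and did not pass with median centring (adjusted p = 0.364). Ly96 had -0.19 with median centring. Of all genes called on the B6 background, 52.3% were higher in B6 + Trib1 lines, and 71.5% with median centring, which moved the median of all genes by 0.12. The median of the 9 genes was -1.29 on the Ts1Cje background and -0.31 on the B6 background, against 0.02 and 0.03 over all genes.

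**Figure D3:**
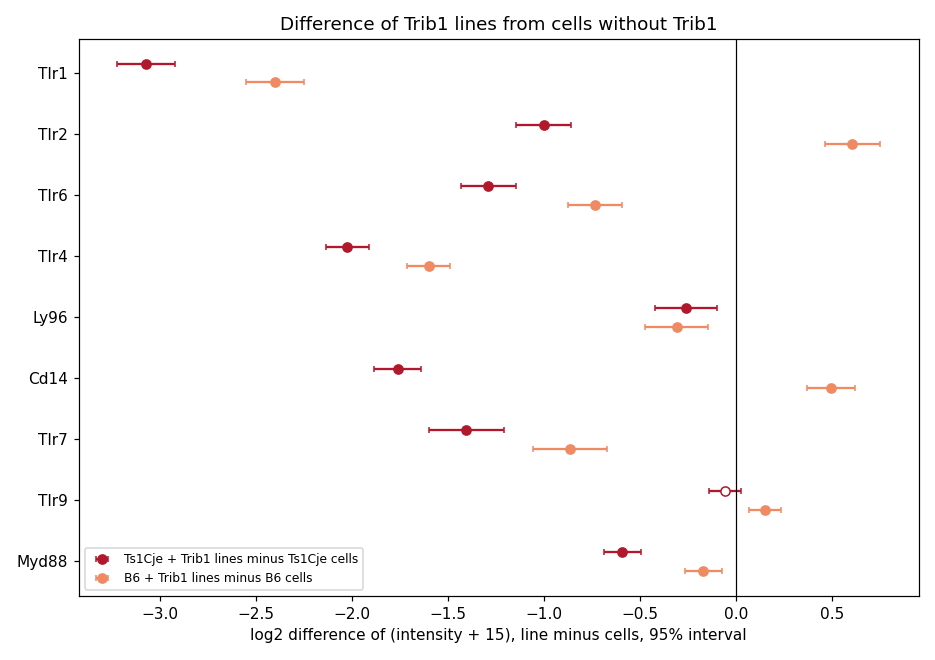
Log2 difference of (intensity + 15), Trib1 lines minus cells without Trib1, for each gene on the Ts1Cje and the B6 background, with 95% intervals from limma (3 arrays a group). Open circles did not pass. Cd14 and Tlr2 lie below 0 on the Ts1Cje background (-1.76 and -1.004) and above 0 on the B6 background (0.49 and 0.61).

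The comparisons above share arrays, so agreement between them is no separate evidence. Over the 12 arrays, which form 4 groups and so are not independent points, the log2 values of Tlr2 and Cd14 had a Pearson correlation of 0.949, while Tlr2 and Tlr4 had 0.308. Tlr1 and Tlr4 had 0.983 and Tlr4 and Tlr6 had 0.974. The genes most like Cd14 were the lysozyme gene Lyz2 (r = 0.985), Acod1 (0.982), which makes itaconate, the macrophage surface gene Adgre1 (0.972) and the ficolin gene Fcnb (0.971). Those most like Tlr2 were Mgst2 (0.970), the phosphatase gene Ptpn6 (0.969), Lyz2 (0.968) and Rassf4 (0.965). Tlr4 was most like the complement gene C1qa (0.998), Gas6 (0.998), Rnase2a (0.997) and Cbr3 (0.997). The genes most like Tlr7 were Tfeb (0.991), Mpnd (0.990), Dap3 (0.988) and Nfkbia (0.987), and those most like Myd88 were Baiap2 (0.989), Litaf (0.988), Cyba (0.986) and Kctd20 (0.986).

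Beyond these genes, 102 others of the pathway were listed in 7 groups, and 89 of them were measured. Between Ts1Cje and B6 cells 24 of the 89 rose and 25 fell (median log2 difference -0.02, against 0.01 over all genes), or 27.0% and 28.1%, against 23.3% and 29.3% of all genes. Between the lines 10 rose and 28 fell on the Ts1Cje background (median -0.06 against 0.00), or 11.2% and 31.5%, against 11.9% and 9.63% of all genes. In Ts1Cje + Trib1 lines 23 rose and 52 fell relative to Ts1Cje cells (median -0.24, against 0.02 over all genes), and in B6 + Trib1 lines 20 rose and 51 fell relative to B6 cells (median -0.25, against 0.03). These were 25.8% and 58.4% of the 89 on the Ts1Cje background, against 34.1% and 26.8% of all genes, and 22.5% and 57.3% on the B6 background, against 34.1% and 31.1%. For the difference between the genotype contrasts, 25 of the 89 were positive and 31 negative (median -0.04), or 28.1% and 34.8%, against 28.4% and 20.2% of all genes. The same shares of all genes are the background for the counts of each list.

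Of the 5 other Toll-like receptors listed, Tlr5, Tlr8 and Tlr12 were measured. Tlr8, an endosomal receptor and neighbour of Tlr7 in function, averaged 25.8 ± 1.89 in Ts1Cje + Trib1 lines, 28.6 ± 2.94 in B6 + Trib1 lines, 52.4 ± 4.47 in Ts1Cje cells and 38.3 ± 1.80 in B6 cells (SD, n = 3 each). It was the only one of the 3 to pass between the cells, with 0.34 (adjusted p = 0.000422), and none of the 3 passed between the lines.

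Of 16 genes for accessory molecules and receptor trafficking, 15 were measured. Between Ts1Cje and B6 cells 7 rose and 2 fell (median 0.13), and between the lines 1 rose and 8 fell (median -0.18). Unc93b1, the chaperone that carries nucleic acid receptors to endosomes, averaged 141 ± 8.94 in Ts1Cje + Trib1 lines, 262 ± 14.6 in B6 + Trib1 lines, 811 ± 41.3 in Ts1Cje cells and 669 ± 30.9 in B6 cells. Its genotype difference was -0.83 in lines (adjusted p = 2.07e-07) and 0.27 in cells (adjusted p = 0.00142). Lbp, which delivers endotoxin to Cd14, had 79.6 ± 7.08 in Ts1Cje + Trib1 lines against 173 ± 1.64 in B6 + Trib1 lines, and 364 ± 19.2 in Ts1Cje cells against 209 ± 12.3 in B6 cells. The genotype difference of Lbp was -0.99 in lines and 0.76 in cells, and with its probe sets averaged -0.53 in lines and 0.43 in cells. The scavenger receptor gene Cd36 fell in both genotype comparisons, with log2 differences of -0.43 in lines and -0.78 in cells. Relative to Ts1Cje cells, Ts1Cje + Trib1 lines had 2 rises and 12 falls in this list, and relative to B6 cells, B6 + Trib1 lines had 1 rise and 10 falls. Ly86, the partner of the receptor-like Cd180, fell to dim means of 23.0 ± 3.07 in Ts1Cje + Trib1 lines against 1286 ± 14.2 in Ts1Cje cells, and of 23.8 ± 1.36 in B6 + Trib1 lines against 923 ± 29.7 in B6 cells. Its log2 differences of -5.10 and -4.60 in that order depend on the added constant, and with an offset of 1 they were -5.76 and -5.22. Large falls were also seen for Lgmn, a protease that cleaves endosomal receptors (-4.57 on the Ts1Cje and -3.49 on the B6 background).

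Of 6 other adaptors, 4 were measured. Tirap, which bridges Tlr2 and Tlr4 to Myd88, was higher in Ts1Cje than in B6 cells by 0.34 (adjusted p = 3.15e-05), and no other passed there. Pik3ap1 (BCAP), an adaptor linking receptors to PI3-kinase, was lower in Ts1Cje + Trib1 than in B6 + Trib1 lines (-0.44, adjusted p = 5.59e-06). Tirap did not pass there (-0.10, adjusted p = 0.121), but passed with its probe sets averaged (-0.14, adjusted p = 0.0249) and without Ts1Cje + Trib1 array 3 (adjusted p = 0.0405). Among 18 of 22 kinases and ubiquitin ligases measured, 3 rose and 6 fell between Ts1Cje and B6 cells, and 3 rose and 2 fell between the lines. The ubiquitin ligase gene Peli2 had a genotype difference of -0.57 in lines and 0.90 in cells, and the kinase gene Ikbke had -0.37 in lines and 0.73 in cells. With its probe sets averaged, Peli2 also had -0.37 in lines. These 2 genes were the only falls of this list between the lines. Peli1 went the other way, with -0.48 in cells and 0.08 in lines, which did not pass. For the difference between the genotype contrasts, 7 of the 18 were positive and 2, Peli2 and Ikbke, negative (median 0.10). These were 38.9% and 11.1%, against 28.4% and 20.2% of all genes.

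Transcription factors downstream (11 of 12 measured) showed 2 rises and 3 falls between the cells and 3 rises and 3 falls between the lines. Relative to cells of their own background 8 of 11 fell and 2 rose in Ts1Cje + Trib1 lines (median -0.77), and 10 of 11 fell and 1 rose in B6 + Trib1 lines (median -0.89). Relb had log2 differences of -1.54 on the Ts1Cje and -1.62 on the B6 background, and Irf5, a mediator of Myd88 signalling, had -1.75 and -1.29 in that order. The AP-1 gene Fos rose by 1.78 on the Ts1Cje and 2.02 on the B6 background. Irf7, which drives interferon genes after Tlr7 and Tlr9 ligation, was higher in Ts1Cje + Trib1 than in B6 + Trib1 lines (0.30) and lower in Ts1Cje than in B6 cells (-0.22). Its call in cells ended with quantile normalization (adjusted p = 0.114) or median centring (0.0995).

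Of 19 inhibitors of the pathway, 18 were measured. Between Ts1Cje and B6 cells 2 rose and 7 fell, and between the lines 2 rose and 5 fell. Irak3, a kinase-like brake on Myd88 signalling, averaged 472 ± 8.22 in Ts1Cje + Trib1 lines, 465 ± 7.42 in B6 + Trib1 lines, 305 ± 19.6 in Ts1Cje cells and 192 ± 1.02 in B6 cells. It thus rose in the lines on both backgrounds (0.61 on Ts1Cje and 1.21 on B6). The NF-kB inhibitor gene Nfkbia was lower in Ts1Cje + Trib1 than in B6 + Trib1 lines (-0.56, adjusted p = 1.89e-06), and Socs1 was higher (0.39, adjusted p = 0.000903). Tnfaip3, the ubiquitin-editing enzyme A20, was lower in Ts1Cje than in B6 cells (-0.49, adjusted p = 7.50e-07), and by a log2 difference of -0.27 with its probe sets averaged. Bcl3 fell in the lines on both backgrounds, with log2 differences of -2.25 on Ts1Cje and -2.32 on B6.

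Inflammatory target genes (20 of 22 measured) had 8 rises and 7 falls between Ts1Cje and B6 cells and 1 rise and 9 falls between the lines. Saa3, an acute-phase gene induced through these receptors, averaged 57.7 ± 1.74 in Ts1Cje + Trib1 lines, 329 ± 19.1 in B6 + Trib1 lines, 927 ± 30.6 in Ts1Cje cells and 441 ± 11.5 in B6 cells. Its genotype difference was -2.24 in lines (adjusted p = 2.56e-12) and 1.05 in cells (adjusted p = 1.46e-09). The lectin receptor gene Clec4e was higher in Ts1Cje than in B6 cells by 1.09 and did not pass between the lines (0.07, adjusted p = 0.329), though it did with its probe sets averaged (0.17, adjusted p = 0.0246). The monocyte chemokine gene Ccl2 averaged 138 ± 19.9 in Ts1Cje + Trib1 lines, 393 ± 12.9 in B6 + Trib1 lines, 2754 ± 76.8 in Ts1Cje cells and 2564 ± 45.9 in B6 cells. It differed by -1.42 between the lines (adjusted p = 1.22e-08), and its relative Ccl7 by -0.75 (adjusted p = 2.56e-08).

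**Figure D4:**
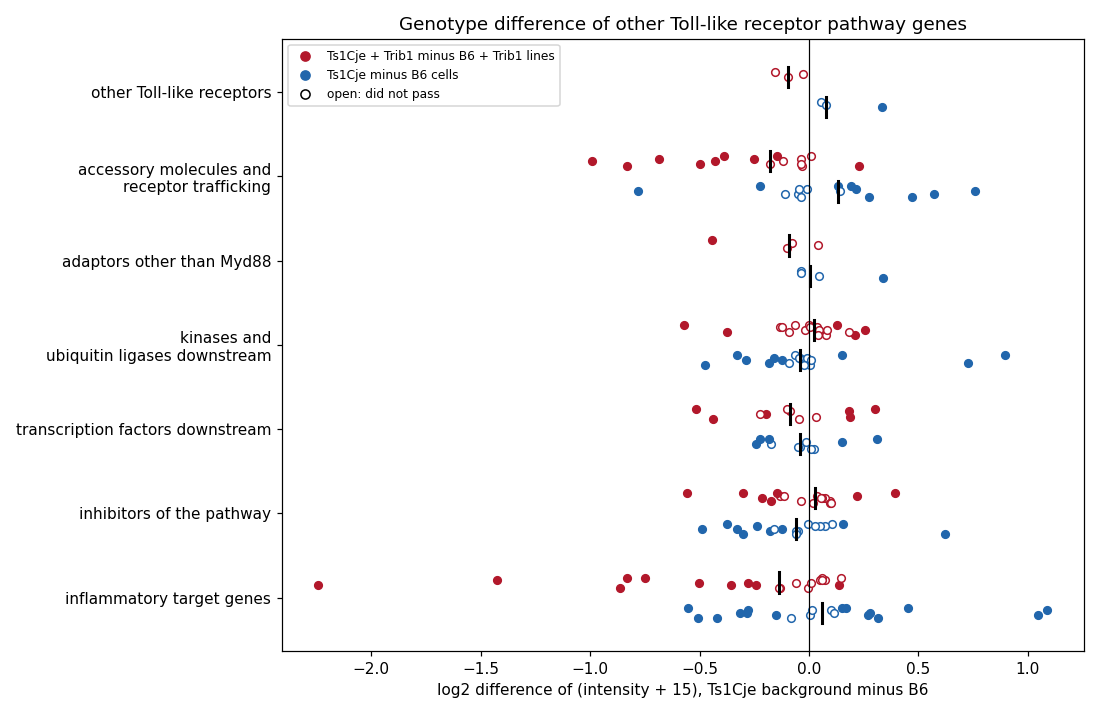
Log2 difference of (intensity + 15), Ts1Cje background minus B6, of each measured gene (points) in the 7 pathway lists, in Trib1 lines and in cells without Trib1, with the median of each list. The accessory and trafficking list has a median of -0.18 in lines and 0.13 in cells, and the inflammatory targets -0.14 in lines and 0.06 in cells.

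Markers of the cell types that carry these receptors also differed between the groups, and not always in the direction of the receptors. In these bulk samples fewer cells of a type and less RNA per cell cannot be told apart. The summed intensity of 14 measured monocyte and macrophage markers (of 15 listed) lay between 5758 and 5850 in Ts1Cje + Trib1 lines, 9455 and 9819 in B6 + Trib1 lines, 23110 and 23526 in Ts1Cje cells, and 15672 and 15969 in B6 cells. Of these 14, 12 rose and 1 fell between Ts1Cje and B6 cells (median 0.82), and 1 rose and 12 fell between the lines (median -1.05). Of all genes, 23.3% rose and 29.3% fell between the cells, and 11.9% rose and 9.63% fell between the lines. In B6 + Trib1 lines 4 rose and 9 fell relative to B6 cells (34.1% and 31.1% of all genes), whereas Cd14 and Tlr2 rose there. In Ts1Cje + Trib1 lines 1 rose and 13 fell relative to Ts1Cje cells (34.1% and 26.8% of all genes). Csf1r, of this list, averaged 83.9 ± 25.7 in Ts1Cje + Trib1 lines, 220.0 ± 8.04 in B6 + Trib1 lines, 820 ± 56.6 in Ts1Cje cells and 472 ± 11.0 in B6 cells. Ccr2 was higher in the lines, with 1202 ± 45.4, 1327 ± 72.9, 759 ± 97.0 and 402 ± 19.6 in that order. Lyz2, Adgre1 and Itgam had higher means in B6 + Trib1 lines than in B6 cells. The 8 measured neutrophil markers summed to between 13559 and 14177, 21284 and 21652, 33687 and 34243, and 24053 and 24205, with Retnlg and Ly6g of the 10 not kept. Their part in the results was not tested.

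Group medians of the summed haematopoietic markers (6 of 6 measured) were 10838, 11546, 12818 and 12594 in the same order, with overlap between Ts1Cje and B6 cells. Conventional dendritic cell markers (5 of 7) had medians of 335, 378, 981 and 938, with overlap between the lines and between the cells. Both lists thus ranked the groups as the monocyte and macrophage list did. Mast cell and basophil markers (7 of 8 measured, Prss34 not kept) summed to between 21919 and 22709 in Ts1Cje + Trib1 lines, 19542 and 19837 in B6 + Trib1 lines, 5036 and 5318 in Ts1Cje cells, and 3293 and 3340 in B6 cells. B-cell markers (8 of 9 measured) summed to between 344 and 366, 330.1 and 365, 2414 and 2553, and 5844 and 6021 in the same order. Plasmacytoid dendritic cells, which carry Tlr7 and Tlr9, had 5 of 7 markers measured, with Siglech and Bst2 not kept. These summed to between 304 and 326 in Ts1Cje + Trib1 lines, 274 and 296 in B6 + Trib1 lines, 1218 and 1288 in Ts1Cje cells, and 2025 and 2089 in B6 cells. Between the lines, 3 of the 7 mast cell and basophil markers rose and 3 fell (median 0.06), against 11.9% and 9.63% of all genes. Fcer1a averaged 5231 ± 102 in Ts1Cje + Trib1 lines and 2755 ± 13.4 in B6 + Trib1 lines. Mcpt8 had 3860 ± 110 and 4410 ± 65.5 in that order, so the sum does not give the direction of each marker. The part of these lists in the results was not tested.

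**Figure D5:**
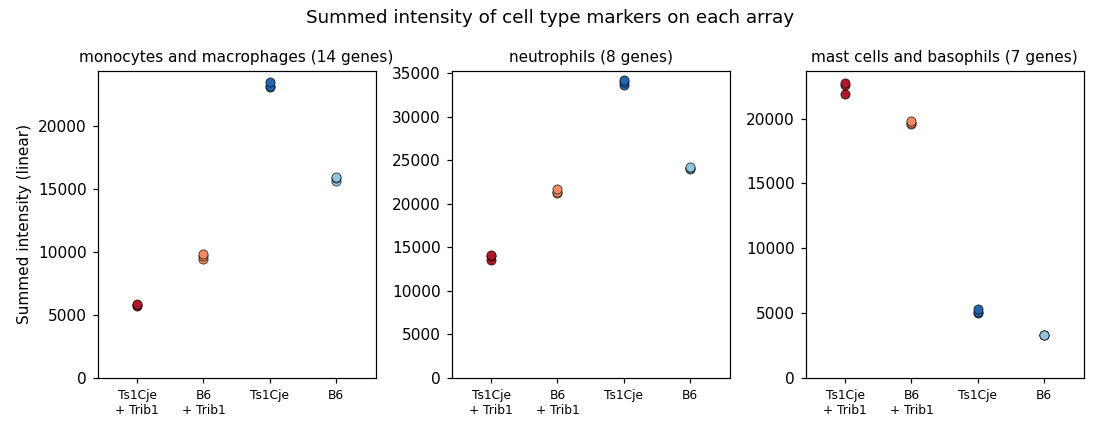
Summed intensity of the measured monocyte and macrophage, neutrophil, and mast cell and basophil markers on every array (points), on linear axes from 0, for Ts1Cje + Trib1 lines, B6 + Trib1 lines, Ts1Cje cells and B6 cells. Monocyte and macrophage markers are highest in Ts1Cje cells (23110 to 23526) and lowest in Ts1Cje + Trib1 lines (5758 to 5850).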

How the data were processed

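Total RNA of 12 mouse samples was hybridised to arrays with perfect-match probes. The deposited values were intensities of 45141 probe sets. MAS5, a method that uses mismatch probes, is named in the submitters' processing notes; how the authors scaled them is not given in the sources used here. No further scaling was applied. Of the probe sets, 28898 carried 1 gene symbol. A probe set was kept when it exceeded its array's 40th percentile on at least 3 arrays (20066 probe sets, 12560 genes), and the brightest on average stood for its gene. From the deposited intensities, log2(intensity + 15) was computed, where the added 15 draws dim differences toward 0. Group means over the 12 arrays were modelled together in limma 3.58.1 (R 4.3.3), with 5 contrasts, two-sided tests and Benjamini-Hochberg adjustment over all genes. It was checked on simulated data. The number of arrays limits the precision.

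The genes described and the lists were chosen with earlier results of these data known. Besides the 10 genes, up to 3 genes per list and pairwise comparison with the largest differences among those that passed could be named, of which a subset is named, and the 4 most correlated genes for 5 members. The titles number replicates alike across groups. Deviations of same-numbered arrays correlated between -0.45 and 0.35 over 18 pairs, and 3 of 12 arrays were most like their own number, so numbers were not used as pairs. Alternatives covered scaling, offset, filter, probe set choice, variance model, replicate block, groups fitted and each array left out. Leaving out Ts1Cje array 1 and B6 + Trib1 array 3 together was chosen after seeing the data. Promoter and gene tables came from RefSeq for GRCm38.p6; promoters of Tlr4, Tlr7, Ly96 and Cd14 were not used here.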

Additional observations from a re-analysis of the deposited data

Results flagged for a closer look

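The genotype difference in Trib1 lines minus that in cells without Trib1 passed limma's test for 8 of the 9 measured genes. All 8 were negative, while 48.6% of all genes passed, 28.4% as positive and 20.2% as negative. This difference of differences was -2.26 for Cd14, -1.61 for Tlr2 and -0.67 for Tlr1 (adjusted p = 2.00e-10, 2.53e-08 and 0.000111). For Cd14, Tlr2, Tlr1 and Myd88 (-0.42, adjusted p = 0.000118) the genotype difference was negative in lines and positive in cells. That of Tlr1 in lines lay between dim values. It no longer passed limma's test without Ts1Cje + Trib1 array 1 or 2 (adjusted p = 0.0511 and 0.0506). For Tlr6 the value was -0.56 and for Tlr4 -0.42, with a smaller genotype difference in lines than in cells (adjusted p = 0.000314 and 0.000406). Tlr7 had -0.54 (adjusted p = 0.00353; -0.84 with an offset of 1) and Tlr9 -0.21 (adjusted p = 0.00672).

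Most of the further pathway genes named for their large differences in the comparisons that make up this one also passed, which their choice favours. Relb (0.08, adjusted p = 0.414) and Bcl3 (0.07) did not pass limma's test. The whole list of 89, itself chosen with earlier results of these data known, gave 25 positive and 31 negative calls. These were 28.1% and 34.8%, against 28.4% and 20.2% of all genes. Among accessory genes the value was -1.75 for Lbp (-0.96 with its probe sets averaged), -1.10 for Unc93b1, -1.07 for Lgmn, -0.51 for Ly86, which was dim in the lines, and 0.35 for Cd36. Tlr8 had -0.43, Tirap -0.44, Pik3ap1 -0.41, Peli2 -1.47 and Ikbke -1.10. Of the 18 measured kinases and ubiquitin ligases, Peli2 and Ikbke were the 2 negative calls, while 7 were positive (median 0.10). The transcription factor genes Fos, Irf5 and Irf7 had -0.24, -0.46 and 0.53. Of the inhibitors, Irak3 had -0.60, Nfkbia -0.66, Tnfaip3 0.55 (0.26 with its probe sets averaged) and Socs1 0.40. The target genes Saa3, Ccl2, Clec4e and Ccl7 had -3.29, -1.53, -1.01 and -0.92. Of the 20 measured target genes, 10 were negative and 6 positive (median -0.25).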

How the results depend on the processing

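Counts of the measured genes that passed kept within 1.5 times the reported count under all 119 alternatives run. Leaving out 1 array at a time gave 7 to 9 between Ts1Cje and B6 cells, 5 to 7 between the lines, 9 in B6 + Trib1 lines against B6 cells, 8 to 9 in Ts1Cje + Trib1 lines against Ts1Cje cells, and 8 for the difference of differences. With the replicate number as a block the counts were 8, 7, 9, 8 and 8 in that order, the same as without it, and the numbers were not taken as pairing the arrays. Of 1066 alternative values for single members, 1041 kept direction and side of the threshold and 0 changed the sign of a call; of 2732 for the named pathway genes, 2710 and 0 did. Tlr9 was dropped by the filter at the 60th percentile. Dim values limit Tlr1, Tlr7, Tlr8 and Ly86 in the lines. Tlr9, between 26.7 and 35.8 on all 12 arrays, was low in every group.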
